A study of Arabidopsis thaliana with 62 samples.

Results

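Small subunits of photosystem II are encoded in the plastid genome of Arabidopsis thaliana by short genes, and 7 of them are described here: psbE, psbF, psbL and psbJ, which form 1 operon, psbK and psbI, which lie next to each other, and psbM. They were taken by name from the plastid annotation and are 7 of the 113 plastid genes tested. Their lengths are 252 bp for psbE, 120 bp for psbF, 117 bp for psbL, 123 bp for psbJ, 186 bp for psbK, 111 bp for psbI and 105 bp for psbM. The operon spans 785 bp between petA, 918 bp away, and petL, 1389 bp away. The psbK-psbI pair spans 677 bp, with a tRNA gene on either side, trnQ at 329 bp and trnS at 91 bp. psbM lies 528 bp from petN and 989 bp from trnD.

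Photosystem II is the thylakoid membrane complex that oxidises water, and most of its small subunits consist of a single membrane-spanning helix. psbE and psbF encode the alpha and beta subunits of cytochrome b559, and psbL and psbJ encode further small subunits. The psbK product lies beside the inner antenna protein CP43 and the psbI product close to the reaction-centre protein D1. psbM encodes a small subunit at the interface of the photosystem II dimer. Plastid DNA is packed into nucleoids that are attached to membranes inside the chloroplast, and many photosynthesis genes are transcribed by the plastid-encoded RNA polymerase with sigma factors supplied by the nucleus.

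The assay, labelled SOLINA, sequenced plastid DNA from a membrane and a stroma fraction of chloroplasts, after crosslinking with 4% formaldehyde for 4 h, so the values are DNA coverage and not RNA. The first set holds 30 libraries in 10 groups of 3: membrane and stroma of untreated 4-day-old seedlings of 3 genotypes (Col0, the wild type, and sig2-2 and sig6-1, each mutated in a sigma factor), and membrane and stroma of 14-day-old Col0 plants, Day (collected 2 h after the start of light) and Night (kept 24 h in darkness). The second set holds 31 libraries of untreated 4-day-old seedlings, Col0, sig2-2, chl27 and chlm, in groups of 4, with 3 for chlm stroma. chl27 and chlm are named after nuclear genes of chlorophyll synthesis.

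Seedlings grew on plates under continuous light and the 14-day plants on soil in a day and night cycle, so age, tissue, medium and light regime differ together between Col0 seedlings and Day leaves and cannot be told apart. In the first set the protocol describes isolated leaf chloroplasts that were crosslinked, for the seedlings too, whereas in the second set whole seedlings were crosslinked before grinding; the sets were fitted separately. Each mutant is 1 line, and plastid coverage does not show the nuclear genotype. The labels do not say whether replicates came from separate cultures, so the p-values measure the spread between these libraries, which may be technical.

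Each value is the mean depth over a gene divided by the mean depth of its library over all plastid positions, called relative coverage below. Library mean depth ran from 95.4 to 1596 in the first set and from 298.9 to 4598 in the second, and the depth over single members from 24.5 to 1971 and from 225.7 to 7201. Depth per base is not a read count, so no counting interval is given. Because each library is scaled to its own mean, a lower value at a gene cannot be told apart from higher coverage elsewhere in that library. Coverage was not equally even: the SD over the 113 genes of log2 relative coverage averaged 0.849 ± 0.0303 (SD, n = 3) in Col0 membrane and 0.332 ± 0.0374 (SD, n = 3) in Day stroma of the first set, and between 0.286 and 0.395 in the groups of the second.

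Within one set of libraries the 7 genes held very different levels, including genes that are neighbours in the operon. In first-set Col0 membrane, relative coverage was 1.29 ± 0.0772 for psbF, 0.987 ± 0.0274 for psbK, 0.874 ± 0.0183 for psbE, 0.73 ± 0.0293 for psbJ, 0.566 ± 0.0535 for psbL, 0.536 ± 0.00295 for psbI and 0.404 ± 0.0477 for psbM (SD, n = 3). In that order, psbL and psbI overlapped between libraries and every other pair of neighbours was apart. psbM ranked 109 of 113 genes, counted from the highest, while psbF ranked 33.

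The same order of the 7 means was seen in Col0 stroma, where psbF stood at 1.47 ± 0.0574 and psbM at 0.486 ± 0.0696 (SD, n = 3), in both fractions of sig2-2 and sig6-1, and in both fractions of Night. In sig2-2 stroma all neighbours in the order overlapped between libraries. Day leaves were different in that the 7 means lay close together, between 0.732 and 1.04 in the membrane and between 0.844 and 1.1 in the stroma. psbM was the lowest of the 7 in all 10 groups of the first set.

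**Figure D1:**
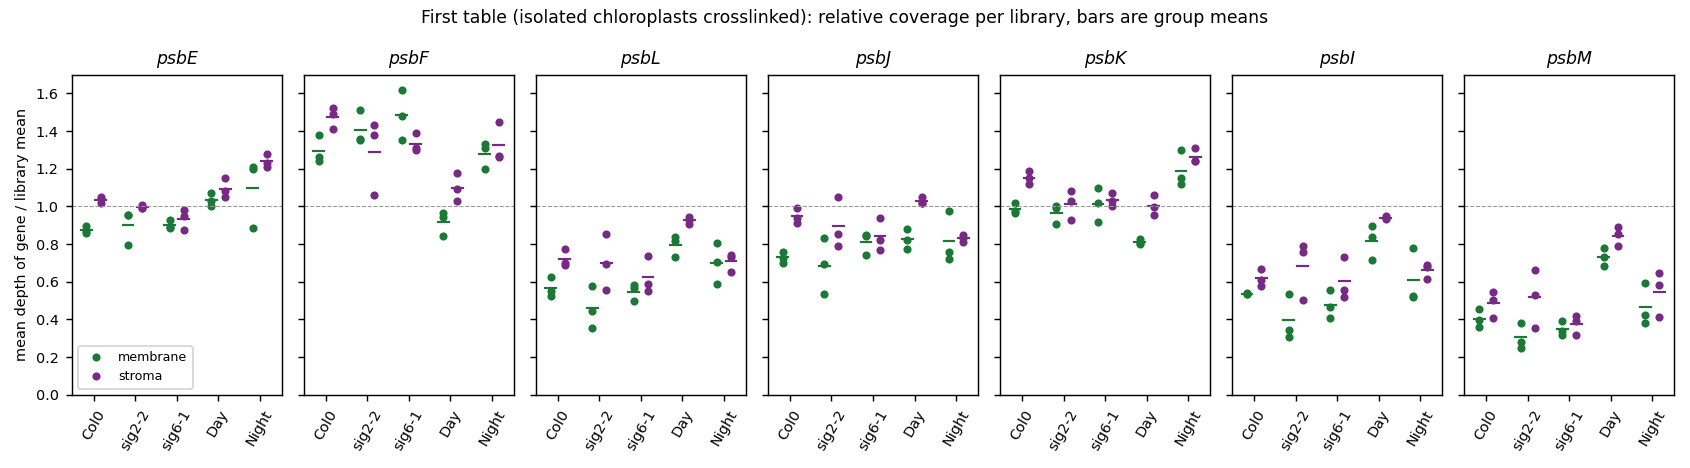
Relative coverage of the 7 genes in each library of the first set, 1 panel a gene, by condition along the x axis, with membrane in green and stroma in purple; points are libraries and short bars are group means. psbF and psbK lie above psbL, psbI and psbM in seedlings and in Night leaves, and the 7 genes lie close together in Day leaves.

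The comparison of membrane with stroma asks which genes are over-represented at the membrane. In Col0 seedlings of the first set, 4 of the 7 genes were lower in the membrane and none was higher, against 72.6% of all 113 genes called in either direction (49.6% lower). A gene was called at an adjusted p under 0.05 in limma, two-sided, with Benjamini-Hochberg adjustment over the 113 genes. The median of the 7 log2 ratios of membrane to stroma was -0.25, beside -0.27 over all genes. The median of the 7 thus lay near that of all genes.

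psbJ stood at 0.727, 0.76 and 0.702 in the 3 Col0 membrane libraries and at 0.991, 0.91 and 0.941 in the 3 stroma libraries, a log2 ratio of -0.38 (limma adjusted p 0.0117, SE 0.13). For psbE the membrane values were 0.895, 0.867 and 0.861 and the stroma values 1.04, 1.02 and 1.05, a log2 ratio of -0.25 (limma adjusted p 0.0198, SE 0.091). All membrane libraries lay below all stroma libraries for both genes. psbK, with 0.967, 0.976 and 1.02 in the membrane and 1.19, 1.12 and 1.15 in the stroma, had a log2 ratio of -0.22 (limma adjusted p 0.013, SE 0.077), again with the groups apart. psbL, at 0.626, 0.549 and 0.523 against 0.775, 0.69 and 0.702, had a log2 ratio of -0.35 (limma adjusted p 0.0414, SE 0.15), also without overlap. The groups were apart for 6 of the 7 genes, psbM being the exception, against 86.7% of all genes.

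These Col0 calls depend on how libraries are scaled. With libraries scaled to the median gene, or to single-copy sequence, the median of all genes moved from -0.27 to -0.03 or -0.09, and none of the 7 genes was called under either scaling (42.5% and 55.8% of all genes called); the psbK ratio became 0.02 with median gene scaling. With 100 bp added on either side of each gene, the psbE ratio was -0.12 and not called, and the psbL ratio was -0.21. psbE was lost without stroma replicate 3 (adjusted p 0.0524) or membrane replicate 3 (0.0545). psbL was lost without stroma replicate 1, 2 or 3 or membrane replicate 2 or 3 (limma adjusted p 0.0519 to 0.135). psbF was called with the flanks (-0.19, adjusted p 0.0263). When the fit held the Col0 libraries alone all 7 were called, and so were 89.4% of all genes.

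In sig2-2 seedlings the ratio of membrane to stroma differed between members. 4 of the 7 were lower in the membrane (71.7% of all genes called, 55.8% lower), with a median of -0.40 for the 7 and -0.25 for all genes. psbI, the subunit close to D1, stood at 0.346, 0.537 and 0.308 in the membrane and at 0.791, 0.758 and 0.501 in the stroma, a log2 ratio of -0.80 (limma adjusted p 0.00146, SE 0.19). psbM stood at 0.28, 0.383 and 0.251 against 0.664, 0.532 and 0.356, a log2 ratio of -0.74 (limma adjusted p 0.00294, SE 0.2). In both genes stroma replicate 3 was below membrane replicate 2, so the groups overlapped.

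psbL, with 0.444, 0.58 and 0.353 in the sig2-2 membrane and 0.852, 0.693 and 0.559 in the stroma, had a log2 ratio of -0.62 (limma adjusted p 0.0019, SE 0.15). psbJ, with 0.692, 0.83 and 0.535 against 0.855, 1.05 and 0.79, had one of -0.40 (limma adjusted p 0.00842, SE 0.13). Both genes had overlapping groups too, and of the 7 genes psbE alone had its groups apart, against 45.1% of all genes. psbJ was lost without sig2-2 stroma replicate 2 (adjusted p 0.0748) or membrane replicate 3 (0.0955), and under both other scalings (log2 ratios -0.14 and -0.10). When the fit held the sig2-2 libraries alone, psbI was the 1 gene of the 7 that was called (12.4% of all genes). Single-copy scaling brought the ratios of psbI, psbM and psbL to -0.49, -0.44 and -0.32, and the 100-bp flanks brought that of psbL to -0.25, all 4 still called. psbK was called lower with the flanks (-0.24, adjusted p 0.00778) and higher with median gene scaling (0.19, 0.0436).

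psbF, the beta subunit of cytochrome b559, had a log2 ratio of 0.14 in sig2-2 (limma adjusted p 0.221, SE 0.098), while psbL beside it in the operon was lower in the membrane. With median gene scaling it was 0.39 (limma adjusted p 0.00652) and with single-copy scaling 0.44 (0.0141). The evenness of coverage moved with the sig2-2 values: the SD over genes of log2 relative coverage was 0.982, 0.751 and 1.06 in the 3 membrane libraries and 0.283, 0.484 and 0.738 in the 3 stroma libraries. Stroma replicate 3, the least even of the stroma libraries, had the lowest stroma values of psbI, psbM, psbL and psbJ. The part of evenness in these ratios was not tested.

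In sig6-1 seedlings 0 of the 7 genes were called in limma (10.6% of all genes), 0 had an unadjusted p under 0.05, and the log2 ratios ran from -0.33 for psbI to 0.15 for psbF. In Night leaves 0 of the 7 were called in limma, 0 had an unadjusted p under 0.05, 0% of all genes were called, and the ratios ran from -0.23 for psbM to -0.03 for psbL. In neither condition were the groups apart for any of the 7, against 37.2% of all genes in sig6-1 and 8.85% in Night.

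In Day leaves 3 of the 7 were lower in the membrane (48.7% of all genes called, 35.4% lower), and the median of the 7 was -0.22 beside -0.21 over all genes. psbK stood at 0.826, 0.806 and 0.799 in the membrane and at 0.954, 0.999 and 1.06 in the stroma, a log2 ratio of -0.31 (limma adjusted p 0.00267, SE 0.077). psbF stood at 0.842, 0.966 and 0.944 against 1.18, 1.09 and 1.03, a log2 ratio of -0.26 (limma adjusted p 0.0341, SE 0.098). psbJ stood at 0.882, 0.776 and 0.823 against 1.05, 1.02 and 1.02, a log2 ratio of -0.32 (limma adjusted p 0.0431, SE 0.13). The groups were apart for 6 of the 7, all but psbE, against 65.5% of all genes. None of the 3 calls was made under median gene or single-copy scaling (33.6% and 37.2% of all genes called). psbF was lost without stroma replicate 1 (adjusted p 0.129), stroma replicate 2 (0.0649) or membrane replicate 1 (0.134), and psbJ without any single library except membrane replicate 1 (limma adjusted p 0.0754 to 0.132).

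Other photosystem II genes of the plastid genome form a list of 8: psbA, psbB, psbC, psbD, psbH, psbN, psbT and psbZ. In first-set Col0, 1 of the 8 was higher in the membrane, psbA for D1 (log2 ratio 0.37), and 2 were lower, psbH (-0.34) and psbN (-0.41), with a median of -0.17. In sig2-2, 0 were higher and 3 were lower, psbH (-0.23), psbN (-0.31) and psbT (-0.76), with a median of -0.13. In Day, 3 were higher, psbA (0.42), psbC for CP43 (0.36) and psbD for the D2 protein (0.26), and 0 were lower, with a median of -0.02. None of the 8 was called in sig6-1 or Night, where 1 each had an unadjusted p under 0.05 in limma. With libraries scaled to their mean, none of the 7 small-subunit genes was called higher in the membrane in any of the 5 conditions, but in sig2-2 psbF was with both other scalings (0.39 and 0.44) and psbK with median gene scaling (0.19, limma adjusted p 0.0436).

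**Figure D2:**
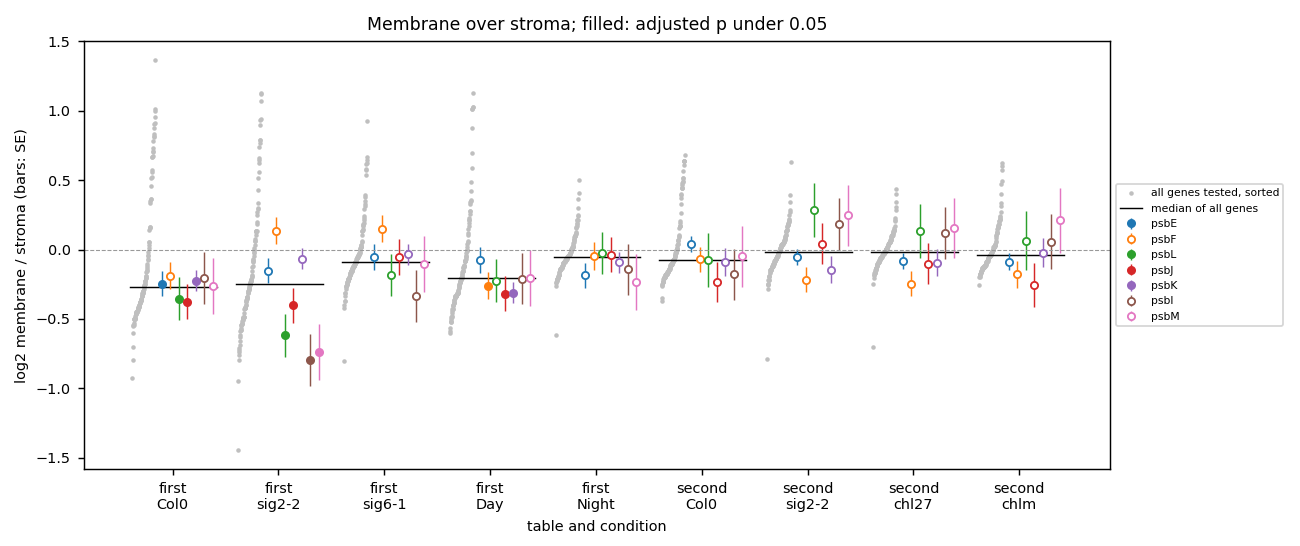
Log2 ratio of membrane to stroma relative coverage for the 7 genes in each condition of both sets (coloured, with standard errors from limma; filled where the adjusted p is under 0.05), beside all 113 genes in grey and their median as a line. With libraries scaled to their mean, as plotted, ratios lie below 0 in Col0 and Day of the first set, where psbF, psbK and psbI in Col0 and psbE in Day turn above 0 with median gene scaling, and run from -0.80 for psbI to 0.14 for psbF in sig2-2 of the first set.

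The changes of the membrane to stroma ratio between conditions were tested as interaction terms, and without the replicate number as a block 0 of the 7 genes were called in any of the 7 such comparisons in limma. The share of all genes called was 4.42% for sig2-2 against Col0, 1.77% for sig6-1 against Col0, 9.73% for Day against Col0 and 7.96% for Night against Day in the first set, where 2, 1, 0 and 0 of the 7 had an unadjusted p under 0.05. In the second set it was 0.885% for sig2-2 and 0% for chl27 and chlm, where 0 of the 7 had an unadjusted p under 0.05. The psbI value for sig2-2 against Col0 in the first set was -0.59 (limma adjusted p 0.22, SE 0.26). It was -0.83 without sig2-2 membrane replicate 2 (adjusted p 0.0316) and -0.80 without sig2-2 stroma replicate 3 (0.0478), so the call is made without either library. Shares of all genes called in these fits are not given here. With the block the psbI change was called too (limma adjusted p 0.0359, 9.73% of all genes). With the block the second-set change in sig2-2 was called for 3 of the 7, psbL (0.36, limma adjusted p 0.0356), psbJ (0.28, 0.0218) and psbI (0.36, 0.0402), against 47.8% of all genes. The numbers paired Col0 with sig2-2 within each fraction of the second set. By the rule given below they did not pair the 2 fractions of sig2-2, where the pairs had correlations of 0.06, 0.89, 0.52 and 0.88. The psbI change had opposite signs in the first and second set. The first-set change without the block was -0.27 for psbL and -0.02 for psbJ (limma adjusted p 0.723 and 0.941). With each library left out in turn, the second-set sig2-2 ratio itself ran from 0.07 to 0.47 for psbL and from -0.06 to 0.31 for psbI, without a call. In the first set, with the fit on the Col0 and sig6-1 libraries alone, the change in sig6-1 was called for psbF (0.34, limma adjusted p 0.0261) and psbJ (0.32, 0.0397), against 40.7% of all genes. Among the other 8 photosystem II genes, the membrane to stroma ratio rose from Col0 to Day for psbC (0.47) and psbD (0.42), and fell from Day to Night for psbA (-0.51) and psbC (-0.47).

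The 14-day Day leaves were compared with the 4-day Col0 seedlings within each fraction. In the membrane 4 of the 7 genes were higher in Day leaves and 2 were lower (66.4% of all genes called). The highest of the 4 was psbM, which stood at 0.729, 0.686 and 0.78 in Day membrane and at 0.396, 0.456 and 0.361 in Col0 membrane, a log2 difference of 0.86 (limma adjusted p 0.000782, SE 0.2). psbI stood at 0.895, 0.715 and 0.838 against 0.539, 0.537 and 0.533, a log2 difference of 0.60 (limma adjusted p 0.00682, SE 0.19). Every Day library exceeded every Col0 library for both genes.

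psbL, with 0.732, 0.815 and 0.836 in Day membrane against 0.626, 0.549 and 0.523 in Col0, rose by a log2 difference of 0.49 (limma adjusted p 0.00683, SE 0.15). psbF, which adjoins psbL, went the other way, from 1.38, 1.24 and 1.26 in Col0 to 0.842, 0.966 and 0.944 in Day, a log2 difference of -0.50 (limma adjusted p 0.000183, SE 0.098). psbK fell as well, by a log2 difference of -0.28 (limma adjusted p 0.00273, SE 0.077), and psbE rose by 0.24 (limma adjusted p 0.021, SE 0.091). Groups were apart for all 7 genes, psbJ with its log2 difference of 0.18 (adjusted p 0.189, and 0.0376 with 100-bp flanks) included, against 85.8% of all genes.

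In the stroma 3 of the 7 were higher in Day leaves and 2 were lower (62.8% of all genes called). psbM stood at 0.855, 0.788 and 0.89 in Day stroma and at 0.547, 0.41 and 0.502 in Col0 stroma, a log2 difference of 0.80 (limma adjusted p 0.0028, SE 0.2). psbI stood at 0.935, 0.938 and 0.948 against 0.668, 0.61 and 0.58, a log2 difference of 0.60 (limma adjusted p 0.00819, SE 0.19). psbF stood at 1.18, 1.09 and 1.03 against 1.52, 1.41 and 1.49, a log2 difference of -0.42 (limma adjusted p 0.00174, SE 0.098). The groups were apart for these 3 genes, and for 6 of the 7 in all, against 80.5% of all genes. The log2 difference was 0.36 for psbL (limma adjusted p 0.0429) and -0.20 for psbK (limma adjusted p 0.0308).

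Several of these calls rest on the gene window, the scaling or single libraries. With 100 bp added on either side of each gene, the membrane difference was 0.01 for psbE, -0.11 for psbF and -0.04 for psbK, and the stroma difference -0.09 for psbF and 0.05 for psbK, none of them called. The psbE membrane call was also lost without Col0 membrane replicate 3 (adjusted p 0.0568) or Day membrane replicate 2 (0.067), and the difference was -0.01 with single-copy scaling. In the stroma psbL was lost with single-copy scaling (0.11) and without Col0 replicate 2 or 3 or Day replicate 1, 2 or 3 (limma adjusted p 0.0687 to 0.111), and psbK without Col0 replicate 1 or 3 or Day replicate 1 or 2 (0.0643 to 0.109). Single-copy scaling brought the psbI difference to 0.34 in membrane and 0.35 in stroma and that of psbL in the membrane to 0.24. With these included, the differences of psbI and psbM were called in both fractions under every setting run and without each library, as was that of psbL in the membrane. In second-set Col0 seedlings, also 4 days old, psbM averaged 0.794 in membrane and 0.83 in stroma, beside 0.732 and 0.844 in Day. There psbI averaged 0.885 and 0.998, beside 0.816 and 0.94 in Day, and psbL 0.94 in membrane, beside 0.794. These seedlings thus lay near or above Day, unlike first-set Col0, but the sets differ in crosslinking and were not tested against each other.

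The dark treatment was compared within 14-day leaves. In the membrane, 2 of the 7 genes were higher in Night than in Day and 1 was lower (18.6% of all genes called). psbK, the subunit beside CP43, stood at 1.15, 1.3 and 1.12 in Night membrane and at 0.826, 0.806 and 0.799 in Day membrane, a log2 difference of 0.55 (limma adjusted p 1.87e-05, SE 0.077). psbF stood at 1.31, 1.33 and 1.2 against 0.842, 0.966 and 0.944, a log2 difference of 0.49 (limma adjusted p 0.000737, SE 0.098). psbM stood at 0.424, 0.38 and 0.596 against 0.729, 0.686 and 0.78, a log2 difference of -0.67 (limma adjusted p 0.0206, SE 0.2). The groups were apart for these 3 genes and overlapped for the other 4, against 25.7% of all genes apart.

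Without Day membrane replicate 3 the psbM difference had an adjusted p of 0.0794, without Night membrane replicate 1 of 0.0612 and without Night membrane replicate 2 of 0.147 in limma. Without Night membrane replicate 1, psbE at 0.22 was called (adjusted p 0.0421), and without Night membrane replicate 3, psbI at -0.64 was (0.0136). psbI was also called lower in Night membrane with median gene scaling (-0.52, limma adjusted p 0.0233), with single-copy scaling (-0.37, 0.0406) and with only the libraries compared (-0.44, 0.0462). The psbF difference was 0.21 with the flanks added and was not called. The psbK difference was 0.30 with the flanks, and its call was made under every setting run and without each library.

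In the stroma, 2 of the 7 were higher in Night than in Day and 4 were lower (59.3% of all genes called). psbK stood at 1.31, 1.24 and 1.24 in Night stroma and at 0.954, 0.999 and 1.06 in Day stroma, a log2 difference of 0.33 (limma adjusted p 0.00145, SE 0.077). psbM stood at 0.412, 0.648 and 0.582 against 0.855, 0.788 and 0.89, a log2 difference of -0.65 (limma adjusted p 0.00934, SE 0.2). psbI stood at 0.615, 0.68 and 0.687 against 0.935, 0.938 and 0.948, a log2 difference of -0.51 (limma adjusted p 0.0223, SE 0.19). All 7 genes had their groups apart, against 83.2% of all genes. psbF had a log2 difference of 0.27 (limma adjusted p 0.0215), psbL of -0.39 (0.0326) and psbJ of -0.31 (0.0391), and psbE at 0.18 was not called (0.085).

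Most of the stroma calls between Night and Day depend on single libraries. Without Day stroma replicate 3 the number called fell from 6 to 2 and without Night stroma replicate 1 to 1. psbF was lost without Day replicate 3 (adjusted p 0.0931) or Night replicate 1 (0.127), and psbI without the same 2 libraries (0.0561 and 0.0846). psbM was lost without Night replicate 1 (0.0848), psbL without Day replicate 1, 2 or 3 or Night replicate 1 (0.0543 to 0.122), and psbJ without any 1 of the 6 libraries (0.0553 to 0.104), all in limma. With single-copy scaling psbL (-0.18), psbJ (-0.11) and psbI (-0.31) were not called, and with the flanks psbF (0.13) and psbK (0.06) were not. psbE was called higher in Night stroma with median gene scaling (0.21, limma adjusted p 0.0092), single-copy scaling (0.39, 0.00104) and the flanks (0.17, 0.0482).

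Across all genes, single-copy scaling moved the median of the Day and Col0 difference from 0.19 to -0.07 in the membrane and from 0.08 to -0.18 in the stroma, and that of the Night and Day difference from 0.07 to 0.14 and from -0.03 to 0.17. The Day libraries enter both the comparison with Col0 and that with Night, so opposite signs in the 2 comparisons are not independent of each other. Evenness of coverage moved with both comparisons: the SD over genes of log2 relative coverage was 0.448 to 0.464 in Day membrane, 0.817 to 0.878 in Col0 membrane and 0.459 to 0.689 in Night membrane, and 0.29 to 0.362, 0.439 to 0.537 and 0.473 to 0.67 in the stroma of the same conditions. Its part in the member differences was not tested.

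**Figure D3:**
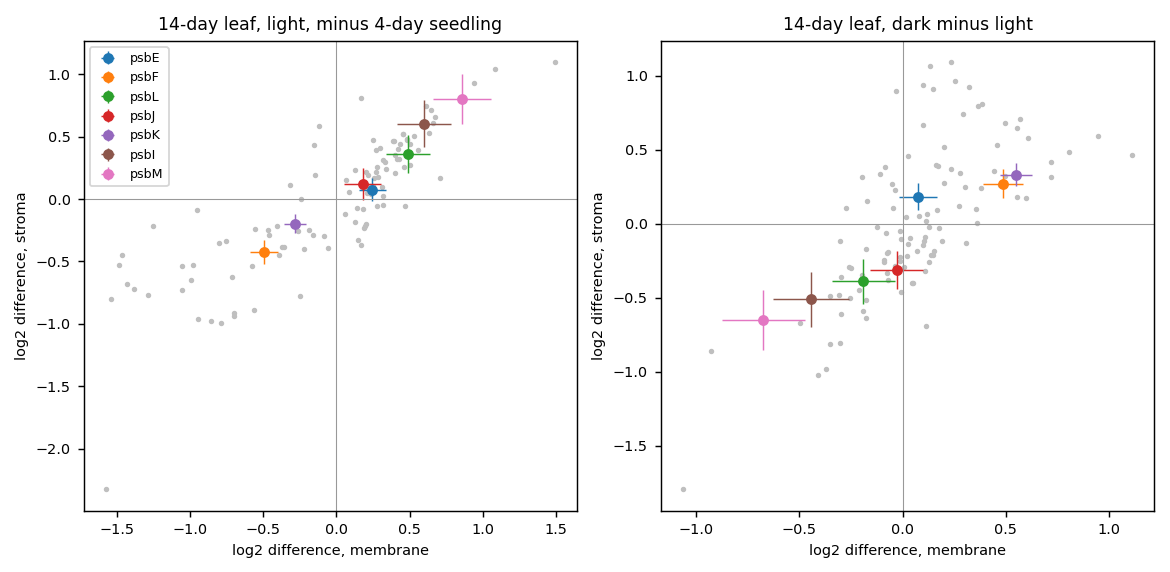
Log2 differences of relative coverage of the 7 genes between Day leaves and Col0 seedlings and between Night and Day leaves, in membrane and in stroma, with standard errors from limma. Between Day and Col0 membrane psbM (0.86) and psbI (0.60) lie highest and psbF (-0.50) lowest, and between Night and Day membrane psbK (0.55) and psbF (0.49) lie highest.

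Among the other 8 photosystem II genes, 1 was higher in Day than in Col0 membrane, psbN (0.40), and 0 were lower. In the stroma 0 were higher and 4 were lower, psbA (-0.24), psbB for the antenna protein CP47 (-0.29), psbC (-0.33) and psbD (-0.23). The medians of the 8 were 0.17 and -0.17, beside 0.24 and 0.12 for the 7 small-subunit genes. From Day to Night, 0 of the 8 were called in the membrane, where 2 had an unadjusted p under 0.05, and in the stroma 4 rose, psbA (0.31), psbB (0.37), psbC (0.38) and psbD (0.27), and psbN fell (-0.35). psbK and psbF were the 2 small-subunit genes that rose with them in the stroma.

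Coverage in 50-bp bins along the first-set libraries, examined after the gene values were known, showed that the differences between leaves and seedlings were uneven within the transcription units. A bin difference is the log2 of the ratio of the group means of relative coverage, so a single high library weighs more. The gene differences above are differences of mean log2 values. Inside the psbE operon the lowest Day and Col0 difference lay in psbF, at -0.65 in membrane and -0.71 in stroma on the log2 scale. The highest lay in the spacer between psbJ and psbL, at 2.73 and 3.64. In that bin relative coverage was 0.0544 to 0.06 in the 3 Col0 stroma libraries and 0.613 to 0.88 in the 3 Day stroma libraries, and 0.1 to 0.106 and 0.612 to 0.767 in the membrane. No Col0 library came near a Day library there.

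The same spacer bin stood at 0.0524 to 0.186 in Night stroma and 0.19 to 0.442 in Night membrane, between the Col0 and Day ranges in the membrane. In the mutants it stood at 0.0436 to 0.666 in sig2-2 stroma and 0.0153 to 0.144 in sig6-1 stroma. The lowest mean depth of any library in this bin was 6.92, so the smallest values rest on little coverage. The spacer of the psbK-psbI pair held the highest Day and Col0 difference inside that unit, at 1.31 in membrane and 1.89 in stroma, while the lowest lay within psbK, at -0.51 and -0.44. The 2 bins within psbM stood at 0.75 and 0.93 in membrane and at 0.70 and 0.82 in stroma.

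Such peaks were not limited to the spacers inside the units. Outside the operon, but within 2000 bp of its centre, the highest Day and Col0 difference in stroma was 2.65, and around the psbK-psbI pair it was 4.41 in membrane and 4.22 in stroma, beyond trnS, all in bins without a gene. Around psbM the highest was 2.52 in membrane and 3.35 in stroma, again in bins without a gene.

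The seedling comparison of sig2-2 with Col0 held peaks in some of the same bins. sig2-2 minus Col0 was 4.08 in membrane and 3.46 in stroma beyond trnS, and 2.24 in stroma in the spacer between psbJ and psbL. In that spacer the stroma peak rests on the highest sig2-2 library, at 0.666, beside a median of 0.0875. The sig2-2 membrane libraries stood there at 0.0538 to 0.128, around the 0.1 to 0.106 of Col0 membrane. Around psbM the highest sig2-2 differences lay in other bins than those of Day. Beyond trnS the median sig2-2 membrane library stood at 0.00772 and the highest at 0.0594. In the bin of the membrane peak beyond trnS, relative coverage was 0.000848 to 0.00231 in Col0 membrane, 0.0111 to 0.062 in Day membrane, 0.00214 to 0.0594 in sig2-2 membrane and 0.0128 to 0.396 in Night membrane. In the stroma it was 0.00441 to 0.00693, 0.026 to 0.0872, 0.0103 to 0.105 and 0.00248 to 0.0106 in the same order. Mean depth in this bin was 0.3 to 0.74 in the Col0 membrane libraries and 8.18 to 10.8 in the Day membrane libraries, so the log2 differences beyond trnS rest on very little coverage.

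**Figure D4:**
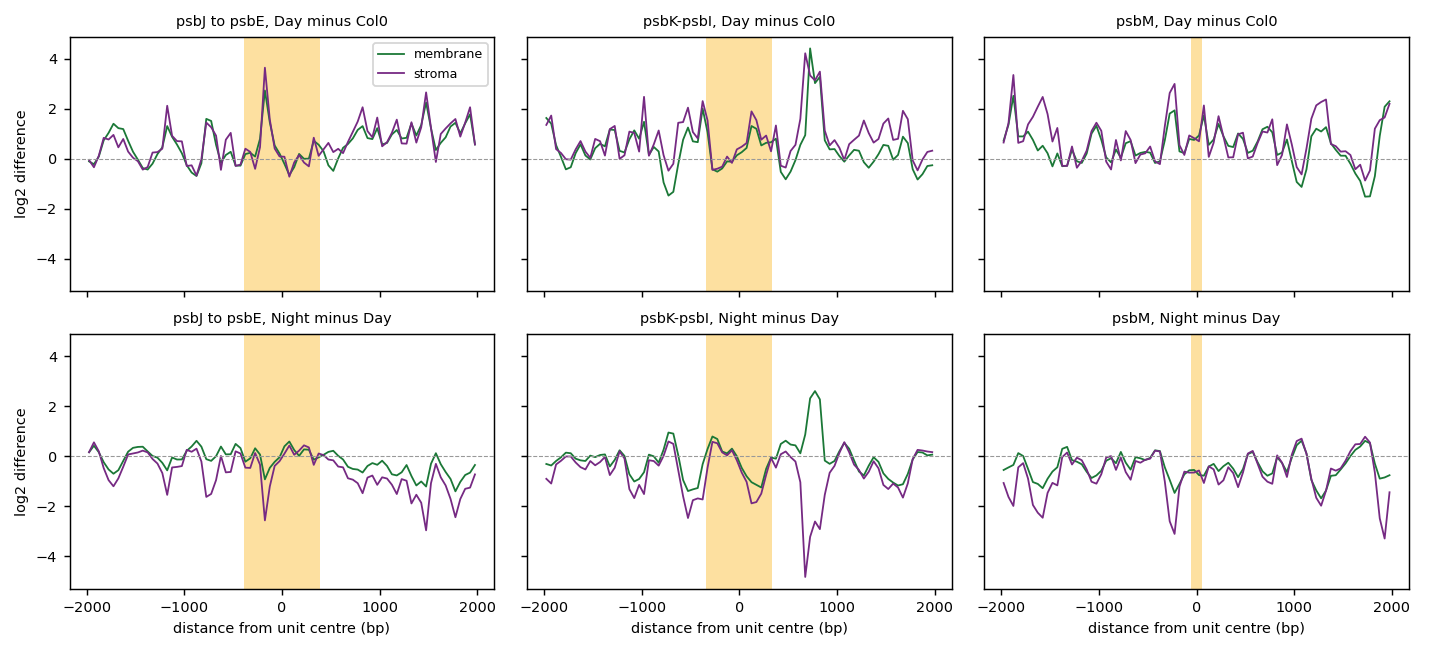
Log2 ratio of group mean relative coverage in 50-bp bins around the psbE operon, the psbK-psbI pair and psbM, against distance from the centre of each unit in bp, for first-set membrane and stroma libraries. The shaded span is the unit itself. The spacer between psbJ and psbL stands at 2.73 in membrane and 3.64 in stroma for Day against Col0, beside negative values in psbF.

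The ratio of psbL to psbF, chosen after the values had been seen and given as a description, summarises the unevenness inside the operon. Its log2 mean was -1.19 ± 0.064 in Col0 membrane, -0.21 ± 0.035 in Day membrane and -0.88 ± 0.3 in Night membrane (SD, n = 3). In the stroma it was -1.03 ± 0.059, -0.24 ± 0.11 and -0.91 ± 0.22. psbL therefore had less than its neighbour's coverage in all 3 of these first-set conditions, with the smallest gap in Day. In second-set Col0 seedlings the ratio was -0.28 ± 0.24 in membrane and -0.27 ± 0.19 in stroma (SD, n = 4), near the Day values. The other second-set groups ran from -0.83 in sig2-2 stroma to -0.15 in chl27 membrane.

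Comparisons of the sigma factor mutants with Col0 within one fraction of the first set called 0 of the 7 genes in limma. The share of all genes called was 10.6% in the membrane for sig2-2, 10.6% in the membrane for sig6-1, and 0% in the stroma for both, and 3, 0, 2 and 0 of the 7 had an unadjusted p under 0.05. The log2 differences ran from -0.48 to 0.12 and from -0.21 to 0.20 in the membrane and from -0.20 to 0.12 and from -0.37 to -0.05 in the stroma, for sig2-2 and sig6-1 in turn. Groups did not separate for any of the 7 in either membrane comparison (20.4% and 39.8% of all genes apart). In the stroma they were apart for 2 of the 7 in sig2-2, psbE and psbK (13.3% of all genes), and for 3 in sig6-1, psbE, psbF and psbK (34.5%). Without sig2-2 membrane replicate 2, psbI (-0.72, limma adjusted p 0.00683), psbL (-0.51, 0.0183) and psbM (-0.60, 0.0411) were lower in sig2-2 than in Col0 membrane. That library had the highest psbI, psbL and psbM values of the 3, at 0.537, 0.58 and 0.383. The share of all genes called without it is not given here. Of the other 8 photosystem II genes, psbA was lower in the membrane in sig2-2 (-0.32) and in sig6-1 (-0.29), and none was called in the stroma.

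In the second set, made from whole crosslinked seedlings, the 7 genes lay closer to each other than in first-set seedlings. With all its libraries in the fit and without the replicate number as a block, 0 of the 7 were called in limma in any comparison. With the block, members were called for membrane to stroma in Col0, chl27 and sig2-2. They were also called for sig2-2 against Col0 in the stroma and in the change of the ratio. psbF had the highest mean of the 7 in 6 of the 8 groups and psbK in the other two, and psbM was the lowest in all 8. In Col0 membrane psbF stood at 1.16, 1.29, 1.13 and 0.997, and psbM at 0.838, 0.687, 0.81 and 0.841. Every psbF library in that group exceeded every psbM library.

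The ratio of membrane to stroma in the second set had a median over the 7 genes of -0.08 in Col0, 0.04 in sig2-2, -0.08 in chl27 and -0.02 in chlm, beside -0.08, -0.01, -0.02 and -0.04 over all genes. The share of all genes called was 15.9%, 0%, 0% and 7.96%, and 0, 1, 1 and 0 of the 7 had an unadjusted p under 0.05 in limma. The groups were apart for 0, 0, 1 and 1 of the 7, the gene being psbF in both chl27 and chlm, against 31.9%, 4.42%, 8.85% and 15.9% of all genes. psbF stood at 1.07, 1.02, 1.05 and 1.06 in chl27 membrane and at 1.18, 1.49, 1.2 and 1.14 in chl27 stroma, a log2 ratio of -0.25 (limma adjusted p 0.231, SE 0.089). With the replicate number as a block it was called (limma adjusted p 0.0454, 7.08% of all genes), as was psbJ in Col0 at -0.23 (0.00787, 52.2% of all genes).

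**Figure D5:**
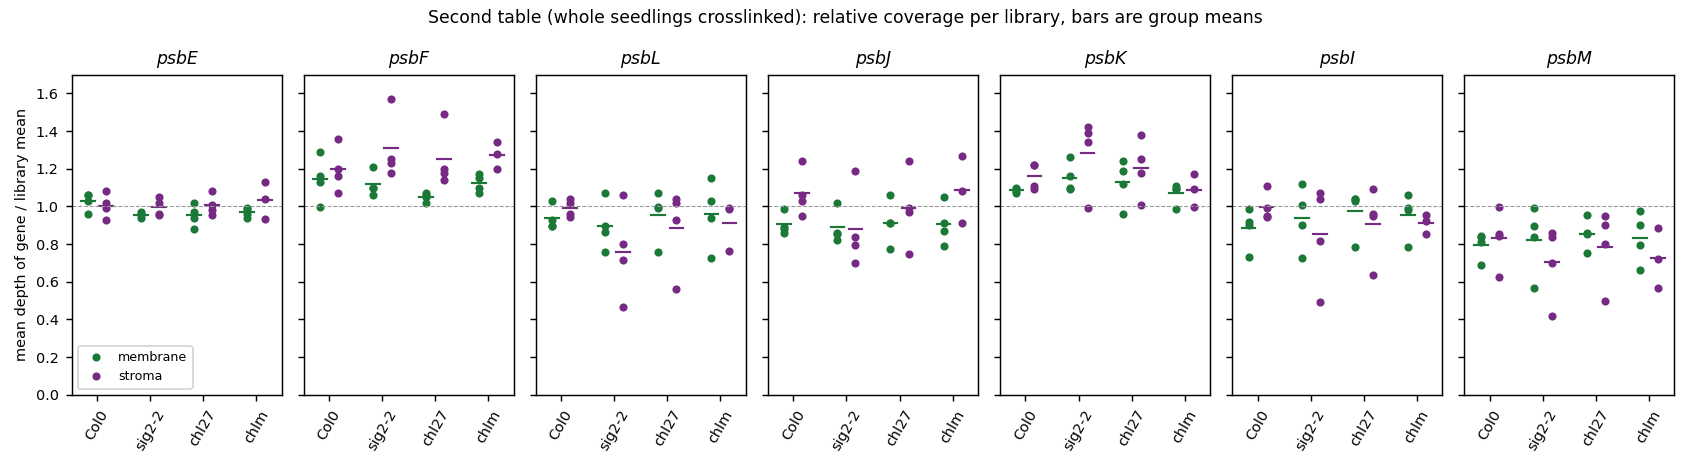
Relative coverage of the 7 genes in each library of the second set, 1 panel a gene, by genotype along the x axis, with membrane in green and stroma in purple; points are libraries and short bars are group means. psbM has the lowest mean in all 8 groups and psbF or psbK the highest.

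Within the stroma of the second set, sig2-2 and Col0 differed in 19.5% of all genes and in 0 of the 7 in limma, where 2 of the 7 had an unadjusted p under 0.05. psbL stood at 0.716, 0.467, 0.798 and 1.06 in sig2-2 stroma and at 0.943, 0.958, 1.02 and 1.04 in Col0 stroma, a log2 difference of -0.44 (limma adjusted p 0.117, SE 0.2). psbJ stood at 0.793, 0.698, 0.837 and 1.19 against 0.949, 1.03, 1.06 and 1.24, a log2 difference of -0.30 (limma adjusted p 0.12, SE 0.15). sig2-2 replicate 4 was the highest of its group for both genes and placed the groups in overlap.

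Same-numbered libraries of sig2-2 and Col0 stroma deviated together, and with the replicate number as a block 4 of the 7 genes were lower in sig2-2 stroma (69% of all genes called): psbL (limma adjusted p 0.00217), psbJ (0.000861), psbI at -0.28 (0.0381) and psbM at -0.27 (0.0305). Without sig2-2 stroma replicate 4 and without the block, psbL (-0.62, limma adjusted p 0.0159), psbJ (-0.46, 0.0137) and psbK (0.25, 0.0256) were called. The share of all genes called without that library is not given here. In the other comparisons within a fraction of the second set, 0% of all genes were called and 0 of the 7 had an unadjusted p under 0.05, with log2 differences of the 7 from -0.20 to 0.14. In no comparison within a fraction of the second set were the groups apart for any of the 7, against 16.8% of all genes for sig2-2 stroma, 8.85% for chlm stroma, 2.65% for chl27 membrane, 1.77% for sig2-2 membrane and 0% for the other two. Of the other 8 photosystem II genes, psbA was higher in Col0 membrane than in stroma (0.21) and in sig2-2 stroma than in Col0 stroma (0.23).

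Replicate number moved with the member values of the second set, a pattern looked for after the values had been seen. psbM was lowest in replicate 2 in 8 of 8 groups, psbI in 7 and psbL in 6, while psbF was highest in replicate 2 in 6. psbJ was highest in replicate 4 in 8 of 8 groups. Replicate 2 was also the library with the least even coverage in 7 of the 8 groups; what the numbers stand for is not given in the labels, and their part in the member values was not tested.

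The transcription units were compared within libraries by the log2 ratio of their mean depths, with an exact two-sided permutation test between membrane and stroma libraries. Over the 3 ratios and 9 conditions, 27 tests in all, 0 had p under 0.05 and the lowest Benjamini-Hochberg adjusted p was 0.675; with 3 against 3 libraries the smallest possible p is 0.1, and with 4 against 4 or 4 against 3 it is 0.0286. The smallest p in the second set was 0.0857, for psbJ over psbE in Col0, where the log2 ratio was -0.18 ± 0.15 in membrane and 0.09 ± 0.23 in stroma (SD, n = 4, exact permutation). All 4 same-numbered pairs were lower in the membrane there, with an exact sign-flip permutation p of 0.125, the smallest that 4 pairs allow. In first-set Col0, psbK-psbI over the psbE operon stood at -0.11 ± 0.072 in membrane and -0.28 ± 0.058 in stroma (SD, n = 3), with the smallest exact p the design allows, 0.1. psbM over the operon stood at -0.93 ± 0.17 and -0.94 ± 0.17 in the same libraries (exact permutation p 1), and at -0.28 ± 0.09 and -0.26 ± 0.098 in Day (exact permutation p 0.7). In first-set sig2-2 it stood at -1.36 ± 0.21 in membrane and -0.82 ± 0.39 in stroma (SD, n = 3, exact permutation p 0.2).

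Across the 9 conditions of both sets, the membrane to stroma ratios of psbL, psbI and psbM followed each other, with Pearson's r of 0.94 for psbL and psbI, 0.93 for psbL and psbM and 0.94 for psbI and psbM. These genes lie in 3 different units. Between genes of the psbE operon r ran from -0.55 for psbL and psbF to 0.78 for psbL and psbJ. The genes outside the 7 whose ratio was most like that of the operon were atpI (r 0.97), rps3 (0.96) and rpoC2 (0.94). For the psbK-psbI pair they were rps18 (0.97), ccsA (0.97) and ndhD (0.96), and for psbM they were matK (0.95), trnK (0.94) and rps18 (0.93). The ratio of a unit was the mean over its genes here, although psbK and psbI had r of -0.07 with each other and psbE and psbF of -0.01. These are descriptions over 9 points from sets that were crosslinked differently and fitted separately, in which all genes share the same libraries.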

How the data were processed

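The deposited values are coverage, the number of reads over each base of the plastid genome, with 1 column per library and TAIR10 positions per the file headers. The submitters' processing notes name Trim Galore 0.4.1, Bowtie2 2.2.8.9 and bedtools 2.25.0, with no settings. The placing of reads that match both inverted repeat copies, and any removal of duplicates, is not given in the sources used here. In the column of chlm stroma replicate 1 of the second set the values run with the position, so it was left out as the 1 unused column, which leaves 61 of 62 samples. In the second set the genotype field reads wild type throughout and the protocol gives a range of ages; the titles were followed.

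Gene bodies came from the TAIR10.1 annotation, which differs in name from the build of the files, so no coordinates are printed. Of 129 plastid entries 113 were tested: for 15 pairs of inverted repeat copies only the first copy was used, and a further entry was left out. Mean depth per gene was divided by the library mean and taken to log2 (Python 3.11.15, numpy 2.4.6, pandas 2.3.3, matplotlib 3.10.9). limma 3.58.1 in R 4.3.3 was fitted to each set with 1 mean per group, two-sided, with Benjamini-Hochberg adjustment over 113 genes within each comparison and a threshold of 0.05. There were 9 membrane to stroma comparisons, 7 changes of that ratio and 14 comparisons within a fraction. The fit was tested on simulated data. Ratios between units were tested by exact permutation.

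All 7 genes are named, the 8 other photosystem II genes where called, and for each unit its neighbours and the 3 genes with the most similar ratio. The members and lists were chosen with earlier results of these data known.

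Alternatives were median gene scaling, single-copy scaling, only the libraries compared, the replicate number as a block, a pseudocount of 1, a minimum depth of 50, 100-bp flanks, the median depth of a unit and each library left out. Replicate numbers were taken to pair libraries where every same-numbered pair deviated together with r over 0.1; the check was made after the blocked counts were known. Between fractions this held for sig6-1 and Day of the first set and for Col0, chl27 and chlm of the second, and between conditions for Night and Day in both fractions and sig6-1 and Col0 in the membrane of the first set, and for sig2-2 and Col0 and for chlm and Col0 in both fractions of the second.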

Additional observations from a re-analysis of the deposited data

Results flagged for a closer look

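In the second set, with 4 libraries per group, 3 member values stood far from the other libraries of their group by Dixon's test. psbJ stood at 1.02 in sig2-2 membrane replicate 4, above the other 3 libraries. psbK stood at 0.985 in chlm membrane replicate 4, below the other 3. psbI stood at 0.787 in chl27 membrane replicate 2, also below the other 3. The test covered 49 combinations of gene and group and chance marks about 1 in 20 of them. Groups of 3 libraries were not tested.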

How the results depend on the processing

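Of the 31 calls, 9 were kept under all 7 settings, 17 without each library in turn and 7 under both. Of all 210 member values, 83 had the other sign under at least 1 alternative, 3 of them called, the largest at 0.24 (log2). A minimum depth of 50 removed 0 genes and so tests nothing, and a pseudocount of 1 changed no call. Read length and duplicates are unknown and the shortest gene has 105 bp, so depth limits are not quantified. The causes of the moves below were not tested, except that fits on fewer libraries or wider windows hold other data by construction.

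Median gene scaling left 0 members called in Col0 and 0 in Day of the first set (membrane to stroma). Signs turned for psbF (0.05), psbK (0.02) and psbI (0.04) in Col0, psbE (0.11) and psbK (0.19) in sig2-2, psbE (0.06), psbJ (0.06), psbK (0.08) and psbM (0.01) in sig6-1, psbE (0.12) in Day, psbF (0.04), psbL (0.07) and psbJ (0.06) in Night, psbM in second-set Col0 (0.004), and psbE between Night and Day membrane (-0.01). Single-copy scaling also left 0 in Col0 and 0 in Day. It turned psbE (0.15) and psbK (0.24) in sig2-2, psbE (0.01), psbJ (0.01) and psbK (0.03) in sig6-1, psbE (0.11) in Day, psbF (0.0014), psbL (0.02) and psbJ (0.01) in Night, and in the second set psbF (0.0019) and psbM (0.02) in Col0 and psbJ (-0.01) in sig2-2. Between Day and Col0 it turned psbE (-0.01) and psbJ (-0.08) in the membrane and psbE (-0.18) and psbJ (-0.13) in the stroma, and between Night and Day membrane psbJ (0.04).

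With the 100-bp flanks 3 members were called between Day and Col0 stroma (61.1% of all genes). Signs turned for psbI in Col0 (0.0014), psbF in sig2-2 (-0.07), psbE (0.04) and psbL (0.03) in sig6-1, psbL (0.10) and psbI (0.10) in Night, psbJ between Night and Day membrane (0.11), psbE (-0.01) and psbK (0.05) between Day and Col0 stroma, and in the second set psbJ in sig2-2 (-0.02) and psbK in chl27 (0.02) and chlm (0.06). With only the libraries compared, 7 were called in first-set Col0 (89.4% of all genes), 1 in sig2-2 (12.4%) and 2 for the change in sig6-1 (40.7%). In second-set Col0 that fit called 1 (41.6% of all genes). With the median depth of a unit, psbK-psbI over the operon turned in sig6-1 (0.05), Day (0.03) and Night (-0.02), psbM over the operon in sig6-1 (0.24) and Day (0.02), and psbJ over psbE in second-set chl27 (0.01).

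With the replicate number as a block, 1 member was called for the change in sig2-2 of the first set (psbI, limma adjusted p 0.0359), and in the second set 3 for the change in sig2-2 (psbL 0.36, psbJ 0.28, psbI 0.36), 4 within sig2-2 stroma, and 1 each for membrane to stroma in Col0, chl27 and sig2-2 (psbF -0.22, limma adjusted p 0.0455). By the rule that every pair exceed r 0.1, the numbers did not pair fractions in sig2-2 of either set, nor in first-set Col0 or Night. In sig2-2 the pairs ran from r -0.45 to 0.70 in the first set and from 0.06 to 0.89 in the second. The shares of all genes called with the block were 9.73% and 47.8% for these changes and 11.5% for sig2-2. The block changed no other call.

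Leaving out 1 library at a time, the number called in the first set was 2 to 4 in Col0, 1 to 2 in Day, 0 to 1 for the change in sig2-2, 0 to 3 for sig2-2 against Col0 membrane, 3 to 4 for Day against Col0 stroma and 1 to 5 for Night against Day stroma, and 0 to 3 for sig2-2 against Col0 stroma in the second set. Ranges that crossed 0 in the first set were -0.12 to 0.03 for psbJ and -0.10 to 0.04 for psbK in sig6-1, -0.09 to 0.02 for psbF, -0.13 to 0.09 for psbL and -0.17 to 0.05 for psbJ in Night, and -0.0039 to 0.22 for psbE and -0.16 to 0.06 for psbJ between Night and Day membrane. In the second set they were -0.00011 to 0.07 for psbE and -0.18 to 0.04 for psbM in Col0, -0.06 to 0.20 for psbJ and -0.06 to 0.31 for psbI in sig2-2, -0.07 to 0.24 for psbL, -0.23 to 0.01 for psbJ, -0.04 to 0.22 for psbI and -0.05 to 0.26 for psbM in chl27, and -0.06 to 0.19 for psbL and -0.08 to 0.03 for psbK in chlm. For psbK-psbI over the operon they were -0.10 to 0.03 in sig6-1, -0.04 to 0.07 in Day, -0.05 to 0.05 in Night, -0.06 to 0.04 in second-set Col0, -0.08 to 0.12 in sig2-2 and -0.04 to 0.27 in chlm. For psbM over the operon they were -0.08 to 0.08 in Col0, -0.08 to 0.03 in Day and -0.12 to 0.09 in second-set Col0, and for psbJ over psbE -0.10 to 0.13 in sig6-1 and -0.15 to 0.06 in chl27.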
